A study of Mus musculus with 2 samples.

Results

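The nuclear genes of oxidative phosphorylation were described here by the chromatin loops listed at their ends in the mouse cortex after stroke or sham surgery. The genes were chosen by symbol alone. All autosomal protein-coding genes whose symbol begins with Nduf, Atp5, Uqcr or Cox followed by a digit from 4 to 8, or is Sdha, Sdhb, Sdhc or Sdhd, were taken, which gave 93 of 20665 genes. A further 3 genes that match, Cox7b, Ndufa1 and Ndufb11, lie on the X chromosome and were left out. By role, 39 genes encode complex I subunits (with 2 copies of Ndufb4 and Ndufa4, a protein now often placed in complex IV), 8 encode complex I assembly factors, 4 complex II, 8 complex III, 17 complex IV and 17 complex V.

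Oxidative phosphorylation takes place in the inner mitochondrial membrane. Complexes I and II pass electrons from NADH and succinate to ubiquinone, complex III passes them to cytochrome c and complex IV to oxygen, and complex V, the ATP synthase, uses the proton gradient made on the way to form ATP. Most subunits are encoded in the nucleus and scattered over the chromosomes, their genes are compact and widely expressed, and neurons depend on the pathway for most of their ATP, which stops being formed when oxygen is cut off.

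Loops had been mapped by Hi-C, which ligates neighbouring stretches of folded chromatin and reads each junction as a paired-end tag (PET). Mice of the stroke group had a filament occlusion of the middle cerebral artery (MCAO) for 1 h, and tissue was taken after 6 h of reperfusion. The sham group had the operation without filament advance or occlusion, and also recovered for 6 h. In both groups the tissue was ipsilateral cortex, a mixture of cell types, and strain, sex and age are not given in the labels. The labels name 3 cortices for each group, but each group has 1 loop list, so differences between the groups could be neither checked in replicates nor tested. Fewer cells of a type that has a loop and fewer loops per cell cannot be told apart in such tissue. The sham list held 14779 loops from 34974213 PETs and the MCAO list 15592 loops from 40550536 PETs, a depth ratio of 1.16, and each loop in either list had at least 10 PETs. A gene was given a loop when an anchor, one of the loop's ends, came within 2.5 kb of either end of the gene, and a gene with no listed loop may have one with fewer PETs. All intervals are 95% intervals that cover counting error only. Loops carry no RNA level, so the tissue label was not checked by expression. Loops at the ends of marker genes numbered 12 in sham and 17 in MCAO for 6 excitatory neuron genes, 6 and 2 for 5 inhibitory neuron genes, 4 and 9 for 5 astrocyte genes, 4 and 0 for 4 oligodendrocyte genes, 2 and 2 for 5 microglia genes, 3 and 2 for 4 endothelial genes and 2 and 2 for 4 leukocyte genes. The part of cell composition in the results was not tested.

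The stretches before the transcription start show the sequence at the gene ends to which these loops were assigned. RefSeq promoter entries (GRCm38.p6, the assembly of mm10) were matched for 75 of the 93 genes. The first set gives the 250 bases before the start of genes whose number of loops differed most between the lists, Atp5b and Ndufa3 with more in MCAO and Ndufb8 and Uqcr11 with more in sham, and of Atp5g2, with 3 loops in each. Capitals mark matches to a motif on either strand: GGGCGG for SP1 in Atp5b, Ndufa3 and Ndufb8, CCGGAAG for ETS factors such as GABPA in Uqcr11, and 2 overlapping matches to GCGCANGCG for NRF1 in Atp5g2. They lie at chr10:128083057-128083306 (+ strand), chr7:3617123-3617372 (+ strand), chr19:44555443-44555692 (- strand), chr10:80406822-80407071 (- strand) and chr15:102671048-102671297 (- strand).
Atp5b: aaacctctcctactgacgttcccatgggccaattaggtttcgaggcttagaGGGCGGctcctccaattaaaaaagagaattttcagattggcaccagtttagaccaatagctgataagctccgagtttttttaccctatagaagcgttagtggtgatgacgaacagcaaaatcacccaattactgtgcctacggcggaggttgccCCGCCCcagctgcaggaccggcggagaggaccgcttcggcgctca
Ndufa3: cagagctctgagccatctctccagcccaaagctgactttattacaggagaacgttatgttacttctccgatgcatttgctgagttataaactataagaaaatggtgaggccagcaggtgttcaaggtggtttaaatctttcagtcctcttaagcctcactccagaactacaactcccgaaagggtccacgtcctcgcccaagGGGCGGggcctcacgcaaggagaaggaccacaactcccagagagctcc
Ndufb8: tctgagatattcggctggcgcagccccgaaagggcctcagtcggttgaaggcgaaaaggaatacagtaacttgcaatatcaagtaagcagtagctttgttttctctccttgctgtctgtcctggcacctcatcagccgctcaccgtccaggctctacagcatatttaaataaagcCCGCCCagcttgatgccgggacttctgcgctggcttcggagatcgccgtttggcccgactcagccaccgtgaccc
Uqcr11: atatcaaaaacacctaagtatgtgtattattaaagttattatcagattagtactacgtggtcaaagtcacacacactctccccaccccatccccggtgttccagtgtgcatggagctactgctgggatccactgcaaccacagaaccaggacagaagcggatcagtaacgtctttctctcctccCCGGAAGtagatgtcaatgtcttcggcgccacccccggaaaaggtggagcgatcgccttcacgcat
Atp5g2: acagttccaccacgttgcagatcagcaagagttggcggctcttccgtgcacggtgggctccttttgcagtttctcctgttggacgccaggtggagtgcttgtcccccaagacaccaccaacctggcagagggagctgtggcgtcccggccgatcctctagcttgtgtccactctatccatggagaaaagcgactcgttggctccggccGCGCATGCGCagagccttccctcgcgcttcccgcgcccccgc

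The second set gives the bases from the start of a member to the start of a gene that is read in the other direction, with NRF1 matches in capitals for Sdha and Ndufa11 and an ETS match for Sdhd. The neighbours are Ccdc127 at 77 bases from Sdha, Vmac at 63 bases from Ndufa11 and Timm8b at 52 bases from Sdhd, and the stretches lie at chr13:74350241-74350317 (- strand), chr17:56717699-56717761 (+ strand) and chr9:50603850-50603901 (- strand).
Sdha: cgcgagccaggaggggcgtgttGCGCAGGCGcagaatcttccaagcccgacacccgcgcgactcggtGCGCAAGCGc
Ndufa11: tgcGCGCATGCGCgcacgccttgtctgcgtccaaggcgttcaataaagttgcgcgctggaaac
Sdhd: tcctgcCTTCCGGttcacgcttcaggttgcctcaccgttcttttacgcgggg

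Such divergent pairs were common in the family. Of the 75 genes with an entry, 21 (28.0%, exact interval 18.2 to 39.6) had a start on the other strand within 1000 bases upstream, against 7.70% of 16382 other genes. The closest were Ndufa7 with the ribosomal protein gene Rps28 at 10 bases and Ndufs3 with Kbtbd4 at 19 bases. Ndufs3, a subunit of the electron-carrying arm of complex I, had no loop in either list, and Ndufa7, an accessory subunit, had none in sham and 1 in MCAO. NRF1 and GABPA are known regulators of nuclear genes for mitochondria. The NRF1 letters were found before 14 of 75 genes (18.7%, 10.6 to 29.3) and 7.33% of other genes of the same window length, and the ETS letters before 13 (17.3%, 9.57 to 27.8) and 9.36%. SP1 letters were found before 29 genes (38.7%, 27.6 to 50.6) and 43.6% of the others, and the YY1 letters AAGATGGCG before 0 genes (exact upper bound 4.80%) and 0.678%. Of the 14 genes with NRF1 letters, 13 were among the 58 with a loop in either list (22.4%, 12.5 to 35.3) and 1 was among the 17 with none (5.88%, 0.149 to 28.7). The intervals overlap. A match is a run of letters and shows no binding.

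A majority of the family had a loop in each list. In sham, 53 of 93 genes had at least 1 (57.0%, 46.3 to 67.2), beside 44.5% of all 20665 genes. In MCAO, 56 had at least 1 (60.2%, 49.5 to 70.2), beside 49.6% of all genes. Other genes in equally gene-dense 1 Mb windows, weighted to the windows of the family, had 43.5% in sham and 49.0% in MCAO, both below the family's interval. Across 8 groups of windows by gene density, the family's share was above that of other genes in all 8 in sham, and in 6 of 8 in MCAO. The 2 that were lower in MCAO were windows of 1 to 6 genes (64.3% against 64.4%) and of 10 to 12 genes (42.9% against 52.6%). The family's genes are short, with a median length of 7.39 kb against 17.6 kb for other genes, and with gene length also made equal the other genes' shares were 37.7% and 43.0%. Part of the gap lies in which genes stand on the other side: after olfactory, vomeronasal and trace amine receptor genes and genes with provisional names were left out, a choice made after the data were seen, other genes at equal density had 47.1% in sham and 54.0% in MCAO, both within the family's intervals. With gene length made equal as well they had 41.4% and 48.2%, both below them. The 95 autosomal genes of cytosolic ribosomal proteins, another family of compact and widely expressed genes, had a loop in 56.8% (46.3 to 67.0) in sham and 62.1% (51.6 to 71.9) in MCAO, so the families did not differ beyond counting error.

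**Figure D1:**
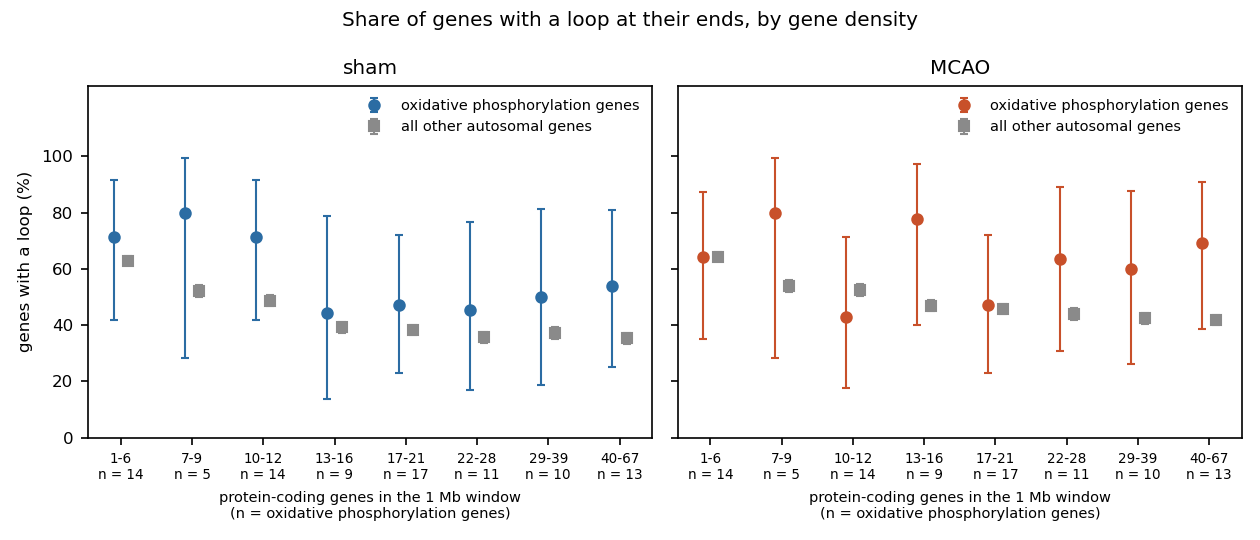
Share of genes with a loop at their ends (vertical axis, %) by the number of protein-coding genes in the 1 Mb window (horizontal axis, 8 groups), for sham on the left and MCAO on the right. Coloured circles are the 93 oxidative phosphorylation genes and grey squares all other autosomal genes, with exact 95% intervals; the family's circles lie above the squares in 8 of 8 groups in sham and 6 of 8 in MCAO, with wide intervals.

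Loops at the family numbered 85 in sham and 103 in MCAO, so MCAO had 1.21 times as many (0.900 to 1.63), and 1.05 times as many per PET sequenced (0.777 to 1.41). At equal depth, with MCAO PETs thinned and the minimum of 10 PETs applied again, the ratio turned to 0.948. Other genes had a ratio of 1.24 as listed, beside 1.21 for the family. Counted as gene-loop pairs, in which a loop at 2 of the genes counts for both, the family had 85 and 106. Set against other genes at equal density, the log2 ratio of pairs differed by 0.02 (-0.41 to 0.45), so the family was not distinguishable from other genes in its MCAO to sham ratio. Over 16 alternative settings this difference ran from -0.06 to 0.26 and turned sign in 4 of them. With MCAO thinned to the sham depth it was 0.03, and the log2 ratio of other genes at equal density was then -0.07, also below 0.

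Gene by gene, the direction was mixed. More loops were listed in MCAO at 32 of the 93 genes (34.4%, beside 29.7% of all genes) and fewer at 19 (20.4%, beside 21.3%). A difference of at least 2 loops toward MCAO was found at 15 genes (16.1%, 9.32 to 25.2, beside 10.2%) and toward sham at 8 genes (8.60%, 3.79 to 16.2, beside 5.45%). Loops in both lists were found at 38 genes (40.9%, beside 30.4%), in MCAO only at 18 (19.4%, beside 19.2%), in sham only at 15 (16.1%, beside 14.0%) and in neither at 22 (23.7%, beside 36.3%). The background lay outside the exact interval for both lists (30.8 to 51.5) and for neither (15.5 to 33.6), and inside it for each of the other shares of this paragraph. Against other genes at equal density without receptor and provisional genes, 32.9% for both lists and 31.7% for neither, these 2 shares lay within counting error. With gene length made equal as well, the other genes had 27.9% for both lists and 38.3% for neither, again outside the family's intervals. No gene of the family had more than 4 loops in a list, while other genes had up to 14 in sham and 12 in MCAO.

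**Figure D2:**
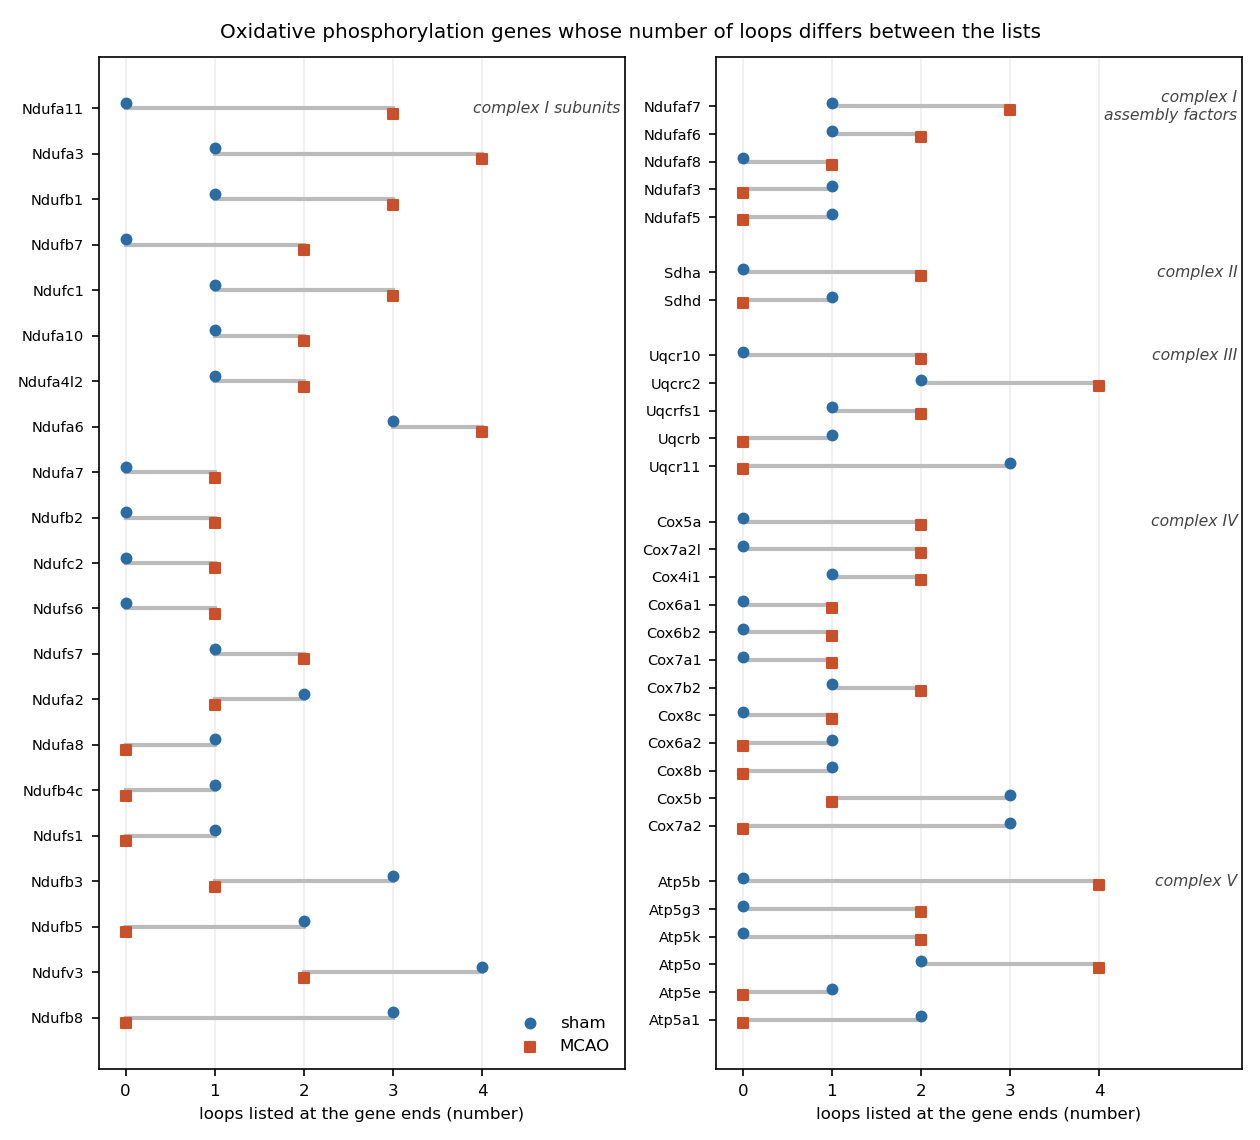
Number of loops (horizontal axis) at the oxidative phosphorylation genes whose numbers differ between the lists, 32 with more in MCAO and 19 with fewer (vertical axis, grouped by complex and ordered by difference); blue circles are sham, orange squares MCAO, and grey bars join the values of a gene. Genes with more loops in MCAO stand at the top of each group, from Atp5b with 0 and 4, and genes with more in sham at the bottom, to Cox7a2, Ndufb8 and Uqcr11 with 3 and 0 each.

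Complex I, the entry point for electrons from NADH, had the most genes and loops. Its 39 subunit genes had 37 loops in sham and 44 in MCAO (ratio 1.19, 0.751 to 1.89), at 24 and 25 genes, with more in MCAO at 13 genes and fewer at 8. Ndufa3, an accessory subunit, had 1 loop in sham with 10 PETs and 4 in MCAO with 149, 89, 17 and 10 PETs. The 149 PETs were the most of any loop of the family in MCAO. That loop spanned 822 kb to an anchor with the ends of 6 genes, among them Tnni3 and Tnnt1, which encode troponin subunits. Its anchor at Ndufa3 was 133 kb wide and held the ends of 10 other genes, Rps9 and Prpf31 included. In sham its partner, the loop with both anchor midpoints within 1 anchor width, had 33 PETs and lay 24.7 kb from Ndufa3, so it was not counted for the gene. The loop of 89 PETs ran to Cdc42ep5, Leng8, Leng9 and Ttyh1, that of 17 PETs to Nlrp12, and that of sham to Ccdc106, Epn1, U2af2 and Zfp580.

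Ndufa11, an accessory subunit of the membrane arm, had no loop in sham and 3 in MCAO with 16, 10 and 10 PETs, and the start shown with Vmac lay in all 3 anchors. The shortest spanned 43.4 kb to Dus3l and Nrtn, a growth factor gene for neurons, another of 328 kb ran to Crb3, Khsrp, Slc25a23 and Slc25a41, and the third had no gene end at its far anchor. Ndufb1 and Ndufc1, accessory subunits, each had 1 loop in sham and 3 in MCAO, with 21 PETs against 22, 13 and 11 at Ndufb1 and with 12 PETs against 13, 11 and 11 at Ndufc1. The far anchors of Ndufb1 held Ppp4r3a in sham and, in the order of PETs, Lgmn and Rin3, Ccdc88c and Ppp4r3a, and Itpk1, Moap1 and Gm20604 in MCAO. Those of Ndufc1 held Noct in sham and no gene end in MCAO. At 15 PETs or more Ndufb1 had 1 in each list and Ndufc1 had 0 in each. With the better part of each list by p-value Ndufb1 had 1 in each and Ndufc1 had 0 and 2. Ndufb7, an accessory subunit, had 0 and 2 loops, the larger with 29 PETs to Tbc1d9. A sham partner of that loop, with 10 PETs, lay 12.8 kb from Ndufb7.

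Ndufb8, an accessory subunit of the membrane arm, had 3 loops in sham with 15, 12 and 10 PETs and none in MCAO. They spanned 238 kb to Scd4, a desaturase gene, 480 kb to Pdzd7 and Sfxn3, and 873 kb to Entpd7 and Slc25a28. Each of the 3 Ndufb8 anchors also held an end of Hif1an, which encodes an oxygen-dependent inhibitor of HIF1. At 15 PETs or more Ndufb8 had 1 in sham and 0 in MCAO, and with the better part of each list by p-value 0 in both. Ndufv3, an accessory subunit of the NADH-binding module, had 4 loops in sham with 13, 11, 10 and 10 PETs and 2 in MCAO with 26 and 21 PETs. In the order of PETs, the far anchors of Ndufv3 held U2af1, Abcg1, and Hsf2bp and Sik1 in sham, and U2af1 with Cbs, and Abcg1 with Tff2 and Tff3 in MCAO. Its order thus turned with the minimum: at 15 PETs or more Ndufv3 had 0 in sham and 2 in MCAO. Ndufb3 had 3 loops in sham with 21, 11 and 11 PETs and 1 in MCAO with 10, and Ndufb5 had 2 in sham with 15 and 12 PETs and none in MCAO. The far anchors of Ndufb3 held Stradb (21 PETs), Casp8 and Gm28802 (11 PETs) and no gene end (11 PETs) in sham and Flacc1 in MCAO, and those of Ndufb5 held Ttc14 and Actl6a. Ndufa2 had 2 in sham with 34 and 10 PETs and 1 in MCAO with 18. The 34 PETs of Ndufa2 in sham had a partner of 34 PETs in MCAO that lay 13.4 kb from the gene. Its far anchors held no gene end in sham and Cystm1 in MCAO.

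Ndufa6, an accessory subunit of the LYR family, was among the genes with most loops, 3 in sham with 32, 22 and 10 PETs and 4 in MCAO with 34, 21, 13 and 10. One of them, 698 kb long in sham and 715 kb in MCAO and reaching Nfam1, was in both lists with 22 and 34 PETs. The others of Ndufa6 ran to Cyb5r3, Poldip3, Rrp7a and Serhl (32 PETs) and to Ccdc134, Mei1 and Srebf2 (10 PETs) in sham, and to Cyp2d26 and Tcf20 (21 PETs), Septin3 (13 PETs) and no gene end (10 PETs) in MCAO. The core subunits encoded in the nucleus lie in the arm of complex I that takes electrons from NADH to ubiquinone. Of these, Ndufv1, Ndufs3 and Ndufs8 had none in either list, Ndufs1 had 1 in sham with 11 PETs and none in MCAO, and Ndufv2 had 1 in each list with 14 PETs in both, to different anchors.

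The 8 genes of complex I assembly factors had 8 loops in sham and 10 in MCAO (ratio 1.25, 0.444 to 3.64). Ndufaf7, a methyltransferase needed for complex I assembly, had 1 loop in sham with 13 PETs and 3 in MCAO with 50, 20 and 15. The loop of 50 PETs spanned 673 kb to Rmdn2, and its partner was the sham loop of 13 PETs and 642 kb to the same gene. The MCAO anchor at Ndufaf7 was 103 kb wide and the sham anchor 10.5 kb. The loops of 20 and 15 PETs ran to Cdc42ep3 and to Gpatch11 and Heatr5b. Ndufaf2, an assembly factor, had 2 loops in each list. Its largest had 93 PETs in sham and 46 in MCAO, spans of 810 and 829 kb and no gene end at the far anchor. The other sham loop of Ndufaf2 had 29 PETs over 686 kb and no gene end at the far anchor. The other MCAO loop was a different one, with 10 PETs over 287 kb to Depdc1b, and neither had a partner. Ndufaf4 had 2 in each list, with 15 and 11 PETs in sham and 19 and 14 in MCAO.

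Complex II, the succinate dehydrogenase, also works in the citric acid cycle. Its 4 genes had 1 loop in sham and 2 in MCAO. Sdha, the flavoprotein that oxidises succinate, had none in sham and 2 in MCAO with 17 and 10 PETs, 290 and 712 kb long, the first to Erap1 and the second to Clptm1l and Slc6a3, the dopamine transporter gene. At 15 PETs or more Sdha had 0 and 1. Sdhd, a membrane anchor subunit, had 1 in sham with 11 PETs and 1071 kb to Ncam1, a neural adhesion gene, and none in MCAO. Sdhb, the iron-sulfur subunit, and Sdhc, the other membrane anchor, had none in either list. A share of 1 in 4 genes in each list (25.0%, 0.631 to 80.6) says little about the complex.

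The 8 genes of complex III had 8 loops in sham and 9 in MCAO (ratio 1.12, 0.385 to 3.35). Uqcr11, a small subunit, had 3 loops in sham with 11 PETs each and none in MCAO. Of these, 2 were short, 24.4 and 29.2 kb, the second with an end of Tcf3 at its far anchor, and the third ran 313 kb to Sbno2. With a minimum of 15 PETs Uqcr11 had none in either list. Uqcrc2, a core subunit, had 2 loops in sham with 22 and 12 PETs and 4 in MCAO with 18, 16, 15 and 13. The sham loops of Uqcrc2 ran to Eef2k and Gm5737 (22 PETs) and to Acsm3, Eri2 and Rexo5 (12 PETs), and the MCAO loops to Gm5737 (18 PETs), to Dnah3, Tmem159 and Zp2 (15 PETs) and to no gene end (16 and 13 PETs). This difference of Uqcrc2 was 0 when the gene end had to lie inside the anchor. The MCAO loop of 18 PETs had a partner in sham, also with 18 PETs, that lay 4.63 kb from Uqcrc2. The MCAO loop of 16 PETs was the partner of the sham loop of 22 PETs. Uqcr10 had 0 and 2 loops, the latter with 11 PETs each. Uqcrfs1, the Rieske iron-sulfur protein, kept 1 loop in both lists, 1090 kb to Foxf2 in sham with 15 PETs and 1087 kb to the same gene in MCAO with 41. Uqcrc1, the other core subunit, also had 1 loop in both, with 25 PETs in sham and 24 in MCAO, 76.5 and 84.1 kb long, to the ends of Celsr3 and Slc26a6.

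Complex IV, cytochrome c oxidase, had 12 loops in sham and 15 in MCAO at its 17 genes (ratio 1.25, 0.546 to 2.92), at 7 and 10 genes. Cox7a2, the isoform of subunit VIIa of most tissues, had 3 loops in sham with 133, 32 and 11 PETs and none in MCAO. The 133 PETs were the most of any loop of the family in sham. That loop spanned 942 kb to Cd109 from an anchor 171 kb wide. The loop of 32 PETs ran to Cd109 and Slc17a5 and that of 11 PETs to Tmem30a. The loops of 133 and 32 PETs had partners in MCAO with 28 and 14 PETs that lay 25.8 and 12.9 kb from Cox7a2. MCAO thus held loops between the same neighbourhoods, with anchors that stopped short of the gene. Cox5b had 3 loops in sham with 29, 17 and 12 PETs and 1 in MCAO with 17, the partner of the loop of 29 PETs. The sham loops of Cox5b ran to Ankrd39, Fam178b and Sema4c (29 PETs), to Arid5a and Kansl3 (17 PETs) and to Lman2l (12 PETs), and that of MCAO to no gene end. Cox5a and Cox7a2l, a factor for supercomplexes, each had 0 and 2. Isoforms and copies made mainly in some tissues (10 genes, among them the heart and muscle isoforms Cox6a2, Cox7a1 and Cox8b and the hypoxia-related genes Cox4i2 and Ndufa4l2) had 5 loops in sham and 7 in MCAO. Ndufa4l2 had 1 in sham with 11 PETs and 2 in MCAO with 15 and 10, and Cox4i2 had none.

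Complex V, the ATP synthase, had 19 loops in sham and 26 in MCAO at its 17 genes (ratio 1.37, 0.729 to 2.62), the most per gene of any complex in both lists, 1.12 (0.673 to 1.75) and 1.53 (0.999 to 2.24), though the intervals of the complexes overlap. Atp5b, the catalytic beta subunit, had the largest difference of the family, none in sham and 4 in MCAO. The 4 loops had 24, 11, 11 and 10 PETs and spans of 411, 180, 139 and 94.9 kb. All ran to the same side, to Gls2, a glutaminase gene, to Mip and Timeless, to Apof and Stat2, and to Smarcc2, Esyt1, Myl6 and Myl6b. All 4 anchors at Atp5b held an end of Baz2a, and 1 of them held the start shown above. At 15 PETs or more Atp5b had 0 and 1.

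Atp5o, the subunit that joins the stalk to the catalytic head, had 2 loops in sham with 37 and 12 PETs and 4 in MCAO with 28, 26, 25 and 20. The loop of 37 PETs, 361 kb to Kcne2 and Smim11, was also in MCAO with 28, to Kcne2. The other sham loop of Atp5o ran to Cryzl1 and Itsn1, and the others of MCAO to Mrps6 (26 PETs), Rcan1 (25 PETs), and Mrps6 and Slc5a3 (20 PETs). At 15 PETs or more Atp5o had 1 and 4, and with the gene end inside the anchor the difference was 0. Atp5g3, a gene for the c ring, had 0 and 2 loops, and the larger joined it over 744 kb, with 28 PETs, to an anchor with Evx2 and Hoxd9 to Hoxd13. The other, of 11 PETs and 483 kb, had no gene end at its far anchor. Atp5k, a small membrane subunit, had 0 and 2 with 11 PETs each, 281 kb to Fgfrl1 and Rnf212 and 96.1 kb to no gene end. Atp5a1, the alpha subunit, had 2 in sham with 17 PETs to Epg5 and 12 PETs to Slc14a1 and Slc14a2, and none in MCAO. Atp5e, the epsilon subunit, had 1 in sham with 13 PETs, to no gene end, and none in MCAO. The alpha and beta subunits, which together form the catalytic head, thus lay on opposite sides.

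Other genes of complex V kept their numbers. Atp5c1, the gamma subunit of the rotating shaft, had 4 loops in each list, the most of the family in sum. Its largest in sham had 110 PETs and 1313 kb, and 3 MCAO loops with 41, 40 and 13 PETs were its partners, at 1337, 1282 and 1422 kb. A short loop of Atp5c1 to Taf3 was in both lists with 12 and 10 PETs, and a sham loop of 203 kb with 10 PETs ran to Gata3. Its other far anchors held no gene end. Atp5g2, another c ring gene, had 3 in each list, and 1 was shared, with 23 and 24 PETs and no gene end at the far anchor. The others of Atp5g2 ran to Copz1 and Nfe2 and to Atf7 in sham, with 10 PETs each, and to Atf7, Map3k12, Npff and Tarbp2 (22 PETs) and no gene end (11 PETs) in MCAO. Atp5j, for coupling factor 6, had 2 in each list, 1 of them shared with 14 PETs in both, and all 4 anchors at Atp5j also held an end of Gabpa, the ETS factor gene named above. Atp5d, the delta subunit, had 2 in each list, to different far anchors.

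**Figure D3:**
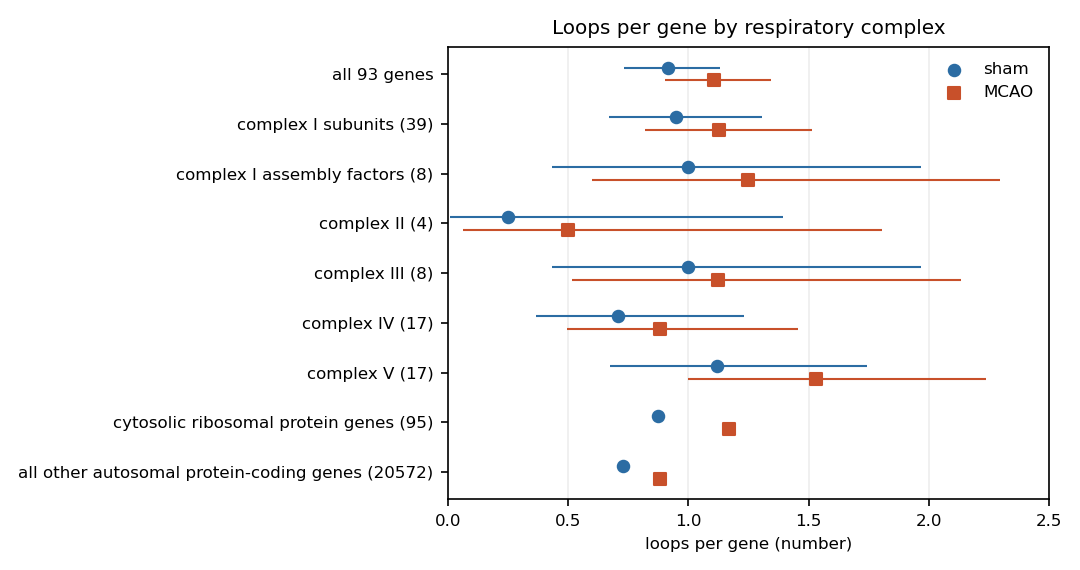
Loops per gene (horizontal axis) by complex, with the number of genes in brackets (vertical axis); blue circles are sham and orange squares MCAO, with exact Poisson 95% intervals of the number of distinct loops. The last 2 rows give gene-loop pairs per gene without an interval, since neighbouring genes share loops; as listed, MCAO lies to the right of sham in every row (at equal depth the whole family's ratio was 0.948), and all intervals of a complex overlap between the lists.

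The loops that joined 2 genes of the family were all in MCAO, 3 of 103 (2.91%, 0.605 to 8.28), against 0 of 85 in sham, with an exact upper bound of 4.25%. Both loops of Atp5d in MCAO ran to Ndufs7, an iron-sulfur subunit of complex I, with 27 PETs over 91.7 kb and 11 PETs over 121 kb. In sham the 2 loops of Atp5d, with 22 and 18 PETs, ran to the other side, to Ptbp1 and Plppr3 and to Cnn2 and Tmem259, and the loop of Ndufs7, with 13 PETs, ran away from Atp5d, to Btbd2, Mknk2 and Mob3a. The loop of 22 PETs had a partner in MCAO with 10 PETs that lay 13.6 kb from Atp5d. The third joined Ndufa3 with Cox6b2, the testis isoform of a complex IV subunit, over 1114 kb with 10 PETs, the lowest number in the lists. Of the loop pair at Atp5d and Ndufs7, 1 would stay at a minimum of 15 PETs.

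**Figure D4:**
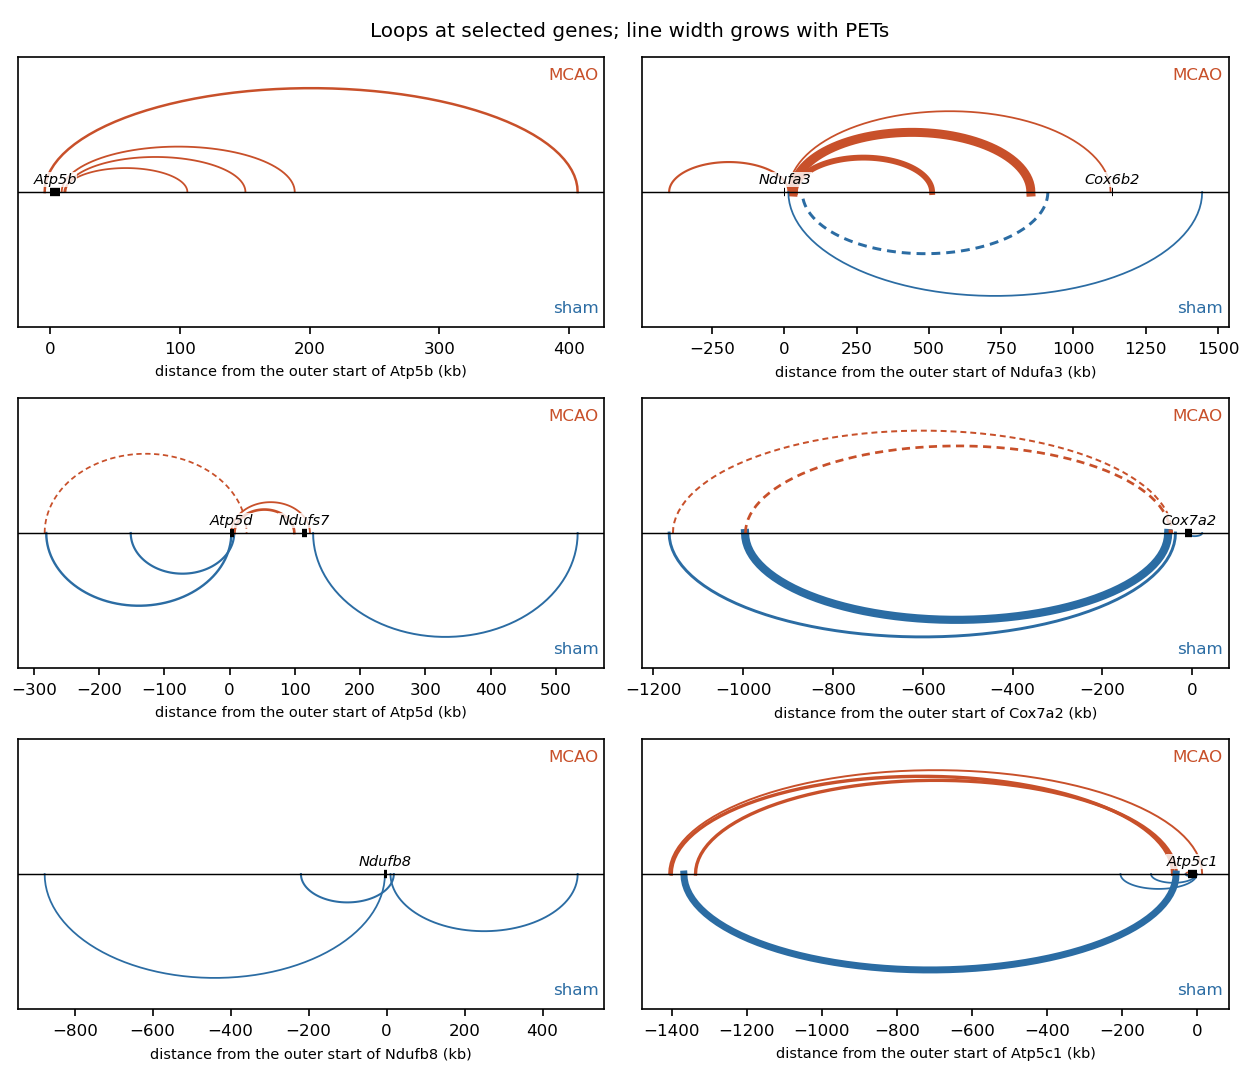
Loops at 6 places as arcs between anchor midpoints (horizontal axis, distance from the gene's outer start in kb, vertical height without scale), MCAO in orange above and sham in blue below the line; line width grows with PETs and black blocks are genes of the family. Dashed arcs are partner loops in the other list whose anchor missed the gene; at Ndufa3 the partner had 33 PETs against 149, at Atp5d 10 against 22 and at Cox7a2 28 and 14 against 133 and 32, while Atp5b had no loop in sham and Ndufb8 none in MCAO.

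The loops of the family were of ordinary size. Over gene-loop pairs, the median span was 344 kb in sham and 275 kb in MCAO, against 369 and 317 kb for other genes, and the median number of PETs was 12 and 14, against 14 and 14. Of the family's distinct loops 43.5% in sham and 34.0% in MCAO had 10 or 11 PETs, next to the minimum. Loops with many PETs had wide anchors: the rank correlation between PETs and the width of the anchor at the gene was 0.56 over 85 loops in sham and 0.47 over 103 in MCAO, a description of loops that share a library and neighbours. The 5 sham loops with at least 40 PETs had anchors of 72.2 to 171 kb.

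**Figure D5:**
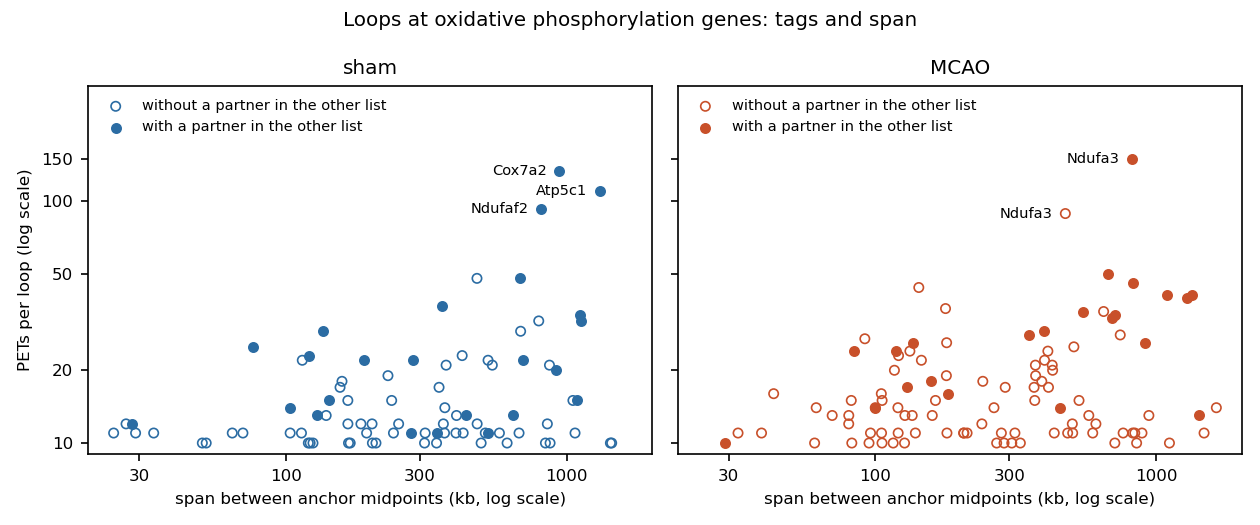
PETs per loop (vertical axis, log scale) against the span between anchor midpoints (horizontal axis, kb, log scale) of the 85 sham loops (left) and 103 MCAO loops (right) at oxidative phosphorylation genes. Filled circles have a partner in the other list (24 in sham, 22 in MCAO) and open circles have none; the loops with the most PETs are those of Cox7a2, Atp5c1 and Ndufaf2 in sham and Ndufa3 in MCAO.

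Few loops of the family were found in both lists. A partner was found for 24 of 85 sham loops (28.2%, 19.0 to 39.0) and 22 of 103 MCAO loops (21.4%, 13.9 to 30.5). By gene-loop pairs the shares were 28.2% and 20.8%, and for other genes at equal density 31.2% and 24.3%, within the family's intervals. The median number of PETs was 22 in sham and 27 in MCAO for loops with a partner, and 11 and 13 for loops without one. A partner may lie within 1 anchor width, and loops with many PETs had wide anchors, so they match more easily by the rule itself. The part of the rule in this difference was not tested. Of the 24 partnered sham loops 16 had their partner at the same gene, and of the 22 in MCAO 18 had it.

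The anchors were seldom at a member alone. No end of another gene lay near the same anchor in 17 of 85 gene-loop pairs in sham (20.0%, 12.1 to 30.1) and 27 of 106 in MCAO (25.5%, 17.5 to 34.9). For other genes at equal density the shares were 38.9% and 39.0%, above the family's intervals. Wdr4 shared the anchor in each loop of Ndufv3, Cebpz in each of Ndufaf7 and Baz2a in each of Atp5b. A gene end stood at the opposite anchor in 62 pairs in sham (72.9%, 62.2 to 82.0) and 74 in MCAO (69.8%, 60.1 to 78.3), against 62.3% and 62.5% of other genes at equal density. A loop given to a member can therefore belong to its neighbour as well.

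Genes that work with the family but do not match its symbols were read in the same way. At the 34 assembly and partner genes, gene-loop pairs numbered 26 in sham against 36 in MCAO. A loop was listed at 14 genes in sham (41.2%, beside 44.5% of all genes) and at 19 in MCAO (55.9%, beside 49.6%). More were listed in MCAO at 10 of the 34 and fewer at 6. Among all genes 29.7% had more in MCAO and 21.3% fewer, the background for this list and those below. Surf1, for complex IV assembly, had 0 and 4, Timmdc1, for complex I assembly, 0 and 3, Cox18 and Ttc19 3 and 5 each, and Sdhaf3, for complex II assembly, 3 and 1. The 13 citric acid cycle genes had 12 and 11, with more in MCAO at 3 and fewer at 3, and Dld, the shared dihydrolipoamide dehydrogenase, had 4 and 1 while Suclg2 had 2 and 4. The 16 regulators of mitochondrial genes had 13 and 12, with more at 3 and fewer at 5: the coactivator gene Ppargc1b had 0 and 2, Gabpa 3 in each list and Nrf1 none. Per gene these lists had 0.765 and 1.06, 0.923 and 0.846, and 0.812 and 0.750 pairs, beside 0.914 and 1.14 for the family and 0.727 and 0.883 for all other genes.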

How the data were processed

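Per the labels' protocols, frozen ipsilateral cortex was used for Arima Hi-C. The submitters' processing notes name HiC-Pro, Bowtie2 and the build mm10, without versions. The loop caller is not given in the sources used here, nor is it stated whether the 3 cortices of a group were pooled. The counts of PETs per loop and reads per anchor are the authors' deposited whole numbers, not scaled for depth. The density signal was deposited by the authors, and together with PETs and anchor width it gave the library totals of 34974213 and 40550536 PETs. The p-values per loop are the authors' deposited values, used only to rank loops within a list for 1 alternative.

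Genes came from a RefSeq table of GRCm38.p6. The design called for a gene's ends, and a loop within 2.5 kb of either was assigned to it. Other genes were weighted to the members' numbers in 8 groups by genes per 1 Mb window. Shares have Clopper-Pearson intervals, ratios of loop numbers exact binomial intervals and loops per gene exact Poisson intervals. For depth, each MCAO PET was kept with a probability of sham over MCAO PETs, computed without drawing. Whether PETs are independent molecules is not known, so intervals cover counting error only.

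The members and lists were chosen with earlier results of these data known. Full values were given for up to 10 members with the largest difference in each direction (ties by sum of loops, then symbol), the 5 with the most loops, those joined by a loop, those at the loop with the most PETs per list, and complex II, with the genes at the far anchors. Other members are named as examples, and 1 member is not reported here by itself. The printed promoters were picked among these. With 1 library per group no p-value was computed. Python 3.11.15, numpy 2.4.6, pandas 2.3.3, scipy 1.17.1 and matplotlib 3.10.9 were used, and the scripts were tested on simulated data. Alternatives covered the window, the minimum of PETs, list length, span, depth, the density groups and the members.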

Additional observations from a re-analysis of the deposited data

How the results depend on the processing

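The share of members with a loop depended on which loops were counted. With at least 15 PETs it was 29.0% in sham and 37.6% in MCAO, with the better part of each list by p-value 38.7% and 39.8%, and with loops found in both lists only, an alternative added after the data were seen, 23.7% and 19.4%. Under 7 further settings for sham and 8 for MCAO it moved by less than its counting interval. The log2 ratio of distinct loops, 0.28 as listed, ran from -0.08 to 0.61 over 11 settings, and its sign turned at equal depth (-0.08). The difference from other genes at equal density, 0.02, ran from -0.06 to 0.26 over 16 settings and turned sign in 4. No paired analysis was possible because each group has 1 library. Leaving out a replicate was not possible for the same reason. Of the member loops, 53 of 85 in sham and 54 of 103 in MCAO had fewer than 15 PETs. A difference of 1 or 2 loops at a gene toward MCAO, the deeper list, is therefore hard to tell from depth at a minimum of 10 PETs. A difference toward sham can also rest on loops near the minimum.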
